A study of Homo sapiens with 1 sample.

Results

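The 3p arms of the hairpins numbered miR-6715 to miR-6895 were examined in DLD-1, a human colorectal carcinoma cell line, on the array of cells that had received the negative control siRNA (si-NC, 1 sample). The members were taken by name: every human miRNA on the array from miR-6715 to miR-6895, with or without a letter, whose name ends in -3p. This gave 173 members of 2549 miRNAs. The study knocked down circLONP2, a circular RNA of the LONP2 gene, to learn its effect on miRNAs, and only the control array was analysed here, so no groups were compared, no p-value was computed, and every error given is technical. The array was read in a single colour, Cy3.

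MiRNAs are cut from hairpin precursors, and either side of the hairpin, the 5p or the 3p arm, can become a mature strand. Most hairpins are cropped by the Drosha and DGCR8 complex, whereas a mirtron is a short intron that is freed by splicing, folds into a hairpin once debranched and then goes directly to Dicer. The 3p arm of a mirtron therefore carries the end of the intron, with the C- and U-rich tract that splicing factors bind and the AG at the splice acceptor. The files do not say which members are mirtrons, so the label was set against the sequences. The RefSeq table of mature miRNAs (GRCh38.p14) matched 154 of the 173 members. Of these, 115 (74.7%) ended in AG, against 10.3% of 629 3p arms outside the range and 6.67% of 150 5p arms of the range. The median share of C and U was 72.7%, against 54.5% and 31.8%. For 143 members the table also held the hairpin, which ended in AG for 133, and in 106 the mature strand ran to the last base of the hairpin. RefSeq placed 131 of the 154 members inside the span of a protein-coding gene listed on the same strand. The counts of hairpin ends and of host genes were not made for other miRNAs, so they do not set the members apart.

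The 10 members with the highest total gene signal, the signal that the scanner software sums over the probes of a miRNA, are shown first because the signal results turn on them. Capitals mark the seed, bases 2 to 8, with which a miRNA pairs to its targets. All are written 5′ to 3′.
miR-6741-3p: uCGGCUCUcucccucacccuag
miR-6834-3p: uAUGUCCCaucccuccauca
miR-6779-3p: aAGCCCUGucuccucccaucu
miR-6887-3p: uCCCCUCCacuuuccuccuag
miR-6797-3p: uGCAUGACccuucccuccccac
miR-6831-3p: uGACUAACucccacucuacag
miR-6737-3p: uCUGUGCUucaccccuacccag
miR-6720-3p: cGCGCCUGcaggaacugguaga
miR-6736-3p: uCAGCUCCucucuacccacag
miR-6804-3p: cGCACCUGccucucacccacag
Of these 10 strands, 6 ended in AG, and 9 held 3 or fewer G, the exception being miR-6720-3p with 8. MiR-6741-3p lies at chr1:225922080-225922101 on the minus strand and miR-6834-3p at chr6:33290305-33290324 on the plus strand, inside PFDN6, which encodes a subunit of the prefoldin chaperone. MiR-6887-3p lies at chr19:35122744-35122764 on the plus strand, inside FXYD3, which encodes a regulator of the sodium pump. All 3 positions are on GRCh38.p14.

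The array held 20 spots per member, spread over 2 probes for 164 members and 3 probes for the other 9. No spot was saturated. Negative control spots had a 99th percentile of 16.1 intensity units, and 1.40% of these were well above background, against 33.8% of the 3460 member spots and 34.3% of all miRNA spots. All 8 colon epithelium markers, among them miR-192-5p and the miR-200 family, were called detected, at total gene signals of 319 to 9249. Markers of other tissues were called detected for 4 of 14: miR-9-5p at 22.1, miR-126-3p at 123, and miR-451a and miR-223-3p at 21.5 and 25.4.

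The first question was how many of these arms gave a measurable signal. The scanner software called 78 of the 173 members detected (45.1%), and 44.4% of all miRNAs on the array. The share was 43.4% for the 702 3p arms outside the range and 55.1% for the 176 5p arms of the range. With 1 array these shares carry no test, and the share of the members was close to that of the array. A probe was taken as above background when 50% or more of its spots were flagged well above it. Every probe was so for 48 of the 78 members, some but not all probes for 19, and none for 11. Among the 95 undetected members, 72 had no spot well above background and the other 23 had 1 or 2.

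The software calls a miRNA detected when a probe signal passes 3 times its error, and the members close to that limit show how small the signals there were. The lowest ratio among detected members was 3.03 for miR-6835-3p, with a total gene signal of 1.53 ± 0.506 (error from the scanner software, as below) and 1 of 20 spots well above background. Next came miR-6782-3p at 1.55 ± 0.503 and miR-6890-3p at 1.62 ± 0.506, with 1 and 0 such spots. Just under the limit stood miR-6809-3p at a ratio of 2.94, miR-6799-3p at 2.93 and miR-6820-3p at 2.81, each with 0 of 20 spots well above background. Their best probes had signals of 1.47 ± 0.501, 1.47 ± 0.501 and 1.40 ± 0.499, so the members on either side of the limit did not differ beyond their errors. The 5p arms of the last 3 were all called detected, at 3.45 ± 0.508, 7.03 ± 0.840 and 82.1 ± 5.87.

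Few of the detected arms were bright. Total gene signals of the 78 ran from 1.53 to 159, with a median of 11.4 and quartiles of 4.65 and 28.97. The median over all detected miRNAs was close, at 12.5, whereas the upper end differed: 2 of 78 members (2.56%) reached a signal of 100, against 19.1% of all detected miRNAs, 11.3% of the detected 5p arms of the range and 20.7% of the detected 3p arms outside it. No member reached 1000, while 61 miRNAs of the array did. A signal under 5 was found for 22 members (28.2%), against 25.1% of all detected miRNAs. The median error was 10.3% of the signal, with a range of 6.202% to 32.97%. Signals of different probes were not read as relative abundance, since probes differ in how well they bind.

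**Figure D1:**
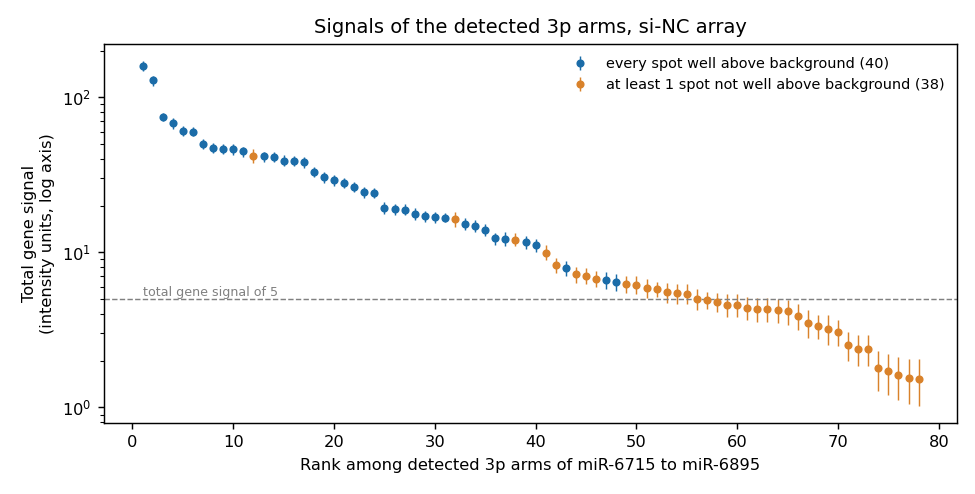
Total gene signal in intensity units (log axis) of each detected 3p arm of miR-6715 to miR-6895, in order of signal, with the error from the scanner software. The signals run from 1.53 to 159, 40 members had every spot well above background and 38 did not, and the 22 members under the dashed line at 5 belong to the second set.

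MiR-6741-3p had the highest signal, 159 ± 11.5, and its 5p arm had 18.6 ± 1.48. MiR-6834-3p followed at 128 ± 9.32, and its 5p arm was not detected. All 20 spots of each 3p arm were well above background. These were the 2 members over 100, and their signals were further apart than their errors.

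The next 4 were miR-6779-3p at 74.4 ± 4.61, inside the gene of the actin-binding protein LASP1, miR-6887-3p at 67.9 ± 5.44, miR-6797-3p at 60.6 ± 4.48, inside the gene of the ribosomal protein RPS19, and miR-6831-3p at 60.1 ± 3.87. Neighbours in this order did not differ beyond their errors. The 5p arms of miR-6779, miR-6887 and miR-6831 were detected at 5.26 ± 0.713, 22.1 ± 1.71 and 7.17 ± 0.849, and that of miR-6797 was not detected.

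The remaining 4 lay between 46.3 and 50.04. MiR-6737-3p, inside the zinc transporter gene SLC39A1, had 50.04 ± 3.65, and miR-6720-3p had 47.1 ± 3.42. MiR-6736-3p had 46.3 ± 3.45, inside PIAS3, which encodes a SUMO ligase that restrains STAT3, and miR-6804-3p also had 46.3 ± 3.99, inside PPP6R1, which encodes a regulatory subunit of protein phosphatase 6. The 5p arm was detected for miR-6737 at 2.23 ± 0.527, with 2 of 20 spots well above background, and for miR-6804 at 6.22 ± 0.810, and it was not detected for miR-6720 and miR-6736.

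To place the members on the array, each spot was divided by the 75th percentile of all spots whose miRNA was detected, a signal of 143, and taken as log2. The median level of the detected members was -2.47, with quartiles of -3.54 and -0.96, and that of all detected miRNAs was -2.23. In the authors' log2 values, all 95 undetected members had the lowest value of the table, and all 22 detected members with a signal under 5 shared the value next above it. The deposited table thus keeps no order within either set. For the other 56 the deposited value less the log2 total gene signal lay between -0.02 and 0.15.

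Base content differed between detected and undetected members. The median share of G was 13.3% in the 70 detected members with a sequence and 18.6% in the 84 undetected ones, and the median share of C was 47.6% and 39.1%. The members were divided at the quartiles of their G share. Of the 42 members with at most 9.52% G, 31 (73.8%) were detected. In the following classes 21 of 35 (60.0%), 11 of 38 (28.9%) and, above 19.8% G, 7 of 39 (17.9%) were detected. With the same limits, the 3p arms outside the range were detected in 49.4%, 36.5%, 49.04% and 42.6%, with no fall of that size. For C the share detected rose from 6 of 39 members (15.4%) with at most 36.5% C to 26 of 37 (70.3%) above 52.2%. Outside the range, 41.3% of 513 3p arms with at most 36.5% C were detected and 76.0% of 25 above 52.2%, so the C-rich end looked alike in both sets and the C-poor end did not.

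Under each of the 4 other detection rules, the lowest G class had a higher share detected than the highest. Where 1 probe above background was enough, the shares in the lowest and the highest G class were 69.05% and 15.4%. That rule called 67 members (38.7% of the members) and 37.9% of all miRNAs on the array. Where the median spot of a probe had to exceed the 99th percentile of negative controls, they were 66.7% and 15.4%. That rule called 59 members (34.1%) and 34.9% of all miRNAs. For a signal of 5 or more the shares were 64.3% and 15.4%, with 56 members (32.4%) and 33.3% of all miRNAs called. With all probes above background they were 59.5% and 7.69%, with 48 members (27.7%) and 29.4% of all miRNAs called. The fall was not steady under every rule: with the median spot against negative controls and with a signal of 5 or more, the third class had 4 of 38 (10.5%) and the highest 6 of 39. These classes were chosen after the values had been seen and are given without a test. The median share of G and C together differed less, 61.9% in detected and 59.1% in undetected members. That of C and U together was 75.6% and 69.6%.

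**Figure D2:**
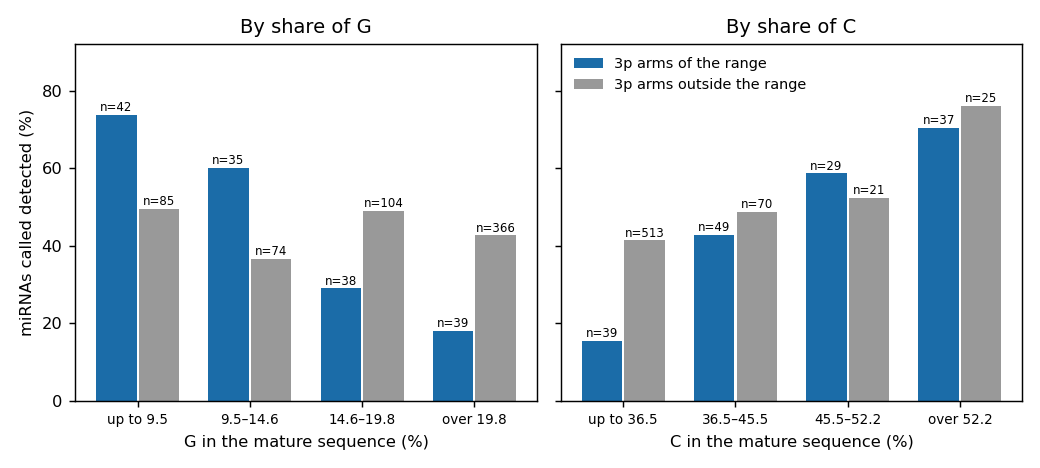
Percent of 3p arms called detected, by the share of G (left) and of C (right) in the mature sequence, for the 3p arms of miR-6715 to miR-6895 and for the 3p arms outside the range, with n above each bar. Limits are the quartiles of the 3p arms of the range, which were detected in 73.8% of the class with least G and 17.9% of the class with most.

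Among detected members the level of the signal went with base content only weakly. Over the 70 with a sequence, Spearman's rho between total gene signal and the share of G was -0.29 and that for C was -0.0082, where all points share the 1 array and C and G shares are tied to each other. Runs of C were counted as well. A run of at least 4 C was found in 35 of 70 detected and 18 of 84 undetected members, and in 14.1% and 3.97% of detected and undetected 3p arms outside the range. Among the 72 members with 3 or 4 G, 19 of 28 with such a run and 12 of 44 without it were detected. Among the 44 with 2 or fewer G 15 of 20 with a run and 17 of 24 without were detected.

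Sequences from both ends of the G range are shown as examples of the detection shares by G. The first 4 have at most 1 G and the last 4 have 7 or more, and these 8 were chosen after their values had been seen. Capitals again mark the seed.
miR-6891-3p: cCCUCAUCuuccccuccuuuc
miR-6731-3p: uCUAUUCCccacucuccccag
miR-6734-3p: cCCUUCCCucacucuucucucag
miR-6809-3p: cUUCUCUUcucuccuucccag
miR-6770-3p: cUGGCGGCugugucuucacag
miR-6869-3p: cGCCGCGCgcaucggcucagc
miR-6840-3p: gCCCAGGAcuuugugcggggug
miR-6722-3p: uGCAGGGGucgggugggccagg
MiR-6891-3p, with no G, had a total gene signal of 18.8 ± 1.54, and miR-6731-3p had 39.1 ± 3.04, both with 20 of 20 spots well above background. MiR-6734-3p and miR-6809-3p, with 1 G each, were not detected, so few G did not go with detection in every member. Of the G-rich strands, miR-6770-3p, miR-6869-3p and miR-6722-3p were not detected. MiR-6840-3p, with 10 G, had 16.7 ± 1.12 with all spots well above background, and miR-6720-3p above, with 8 G, was among the 10 highest.

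Ending in AG did not go with a higher share detected. Of the 115 members that ended in AG, 49 (42.6%) were detected, and of the 39 that did not, 21 (53.8%) were. Within 2 or fewer G the counts were 19 of 30 and 13 of 14, within 3 or 4 G they were 27 of 58 and 4 of 14, and with 5 or more G 3 of 27 and 4 of 11, so the direction was not the same in each class. The position of the strand in its gene showed a small difference: 61 of 131 members inside a protein-coding gene on the same strand (46.6%) and 9 of the other 23 (39.1%) were detected. In 4 genes more than 1 member was found. PPP6R1 held 3 members, of which miR-6804-3p and miR-6803-3p were detected, the latter at 28.1, and miR-6802-3p was not. KDM5C, the gene of a histone H3 lysine demethylase, held miR-6894-3p, detected at 4.16, and miR-6895-3p, not detected. CAMTA2, which encodes a calmodulin-binding transcription activator, held miR-6865-3p, detected at 3.22, and miR-6864-3p, not detected. Both members inside the autophagy gene ATG2A, miR-6749-3p and miR-6750-3p, were not detected. The RNA of the host genes was not measured.

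The arms of each hairpin were set side by side next. Of the 170 hairpins of the range with both arms on the array, 47 had both arms detected, 31 had only the 3p arm, 46 had only the 5p arm and 46 had neither. The 3p arm was detected for 47 of 93 hairpins with a detected 5p arm (50.5%) and for 31 of 77 without (40.3%). For the 640 hairpins outside the range the same shares were 61.3% of 302 and 26.9% of 338, so the shares lay closer together inside the range, a difference that was not tested. Inside the range the direction depended on the detection rule: with all probes above background, the 3p arm was detected for 16 of 67 hairpins with a detected 5p arm (23.9%) and for 32 of 103 without (31.1%). Hairpins with both arms detected numbered 16 to 47 over the rules, while those with only the 3p arm stayed at 30 to 32. Over the 47 hairpins with both arms detected, the total gene signals of the arms had a Spearman's rho of 0.077, a description of 1 array in which each arm has its own probes.

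The opposite strands of a hairpin differed in base content. In the 37 hairpins with both arms detected and both sequences known, the median G share was 13.6% for the 3p and 52.2% for the 5p arms. In the 29 hairpins with only the 3p arm detected and both sequences known, the 3p arms had a median of 13.04% G. In the 36 with only the 5p arm detected the 3p arms had 18.2% G, and in the 37 with neither they had 19.05% G while the 5p arms had 39.1%. The 5 highest signals among 3p arms without a detected 5p arm belonged to miR-6834-3p, miR-6797-3p, miR-6720-3p and miR-6736-3p, given above, and to miR-6855-3p at 41.4 ± 3.09, inside USP20, the gene of a deubiquitinating enzyme. The 5p arms of miR-6720, miR-6736 and miR-6855 had 0 of 20 spots well above background, and those of miR-6834 and miR-6797 had 2 of 20.

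Few members shared a seed. The 154 sequences held 149 seeds, of which 5 occurred in a pair of members, and no pair had both strands detected. The 3 pairs with a detected strand are shown because the same seed came with a signal in the first strand and none in the second.
miR-6819-3p: aAGCCUCUguccccaccccag
miR-6877-3p: cAGCCUCUgcccuuggccucc
miR-6801-3p: aCCCCUGCcacucacuggcc
miR-6810-3p: uCCCCUGCucccuuguuccccag
miR-6824-3p: uCUCUGGUcuugccaccccag
miR-6764-3p: uCUCUGGUcuuuccuugacag
MiR-6819-3p, inside MYH9, the gene of a nonmuscle myosin heavy chain, had 14.9 ± 1.26, with 20 of 20 spots well above background, and miR-6877-3p was not detected. MiR-6824-3p, inside the anion exchanger gene SLC26A6, had 6.24 ± 0.810 with 19 such spots, and miR-6764-3p was not detected. MiR-6801-3p, inside PPP2R1A, the gene of the scaffold subunit of protein phosphatase 2A, had 2.37 ± 0.536 with 5 such spots, and miR-6810-3p was not detected. In each pair the bases after the seed differ.

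Different probes of the same member were compared as a check on its signal. Probes above background numbered 2 or more for 49 detected members. The median log2 difference between the brightest and dimmest of them was 0.31, with quartiles of 0.12 and 0.77, against a median of 0.35 over 801 miRNAs of the array and 0.16 over 71 5p arms of the range. A difference of 1 or more was found for 9 of the 49 (18.4%), against 19.6% of the 801 and 2 of 71 5p arms (2.82%). The difference between brightest and dimmest can grow with the number of probes. Members and 5p arms of the range had 2 or 3 probes each. Over the array, 2056 of 2549 miRNAs had 2 probes, 173 had 3 and the rest another number. The values over the 801 therefore rest on unlike numbers of probes, and those of the 5p arms are the closer match. The median standard error of a difference, from replicate spots, was 0.15 for the members and 0.063 for the 5p arms, and 21 of the 49 differences (42.9%) were over 3 standard errors, against 65.8% of the 801 and 35 of the 71 5p arms (49.3%). The median was 0.12 after normexp background correction, which adds an offset of 50 to every signal and left 2 members at 1 or more.

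**Figure D3:**
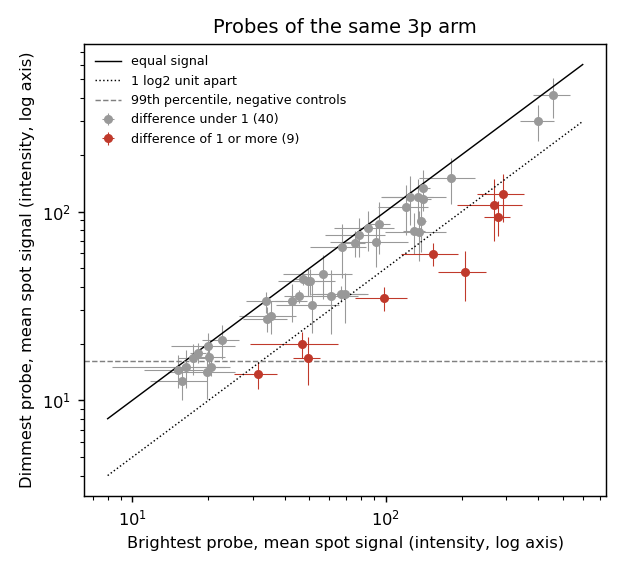
Mean spot signal (intensity, log axes) of the dimmest against the brightest probe of each of the 49 3p arms of the range with 2 or more probes above background, with the SD over replicate spots. The 9 members in red lie below the dotted line, at 1 log2 unit or more, and the dashed line is the 99th percentile of negative control spots, 16.1.

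The largest difference was 2.10 ± 0.17 (SE) for miR-6804-3p, whose probes had mean spot signals of 205 ± 43.4 (SD, 10 spots) and 47.8 ± 14.1 (SD, 10 spots). For miR-6887-3p it was 1.56 ± 0.11, between 277 ± 31.7 and 94.04 ± 19.5 (9 spots each). Both are among the 10 highest total gene signals, and both probes of each stood above the negative controls.

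MiR-6778-3p, inside SHMT1, the gene of cytosolic serine hydroxymethyltransferase, had a difference of 1.55 ± 0.14, between 49.3 ± 6.05 (9 spots) and 16.8 ± 4.77 (10 spots). MiR-6798-3p, inside the helicase gene RUVBL2, had 1.495 ± 0.13, between 98.4 ± 22.99 (10 spots) and 34.9 ± 5.17 (7 spots). MiR-6757-3p, inside TNS2, the gene of a focal adhesion protein, had 1.37 ± 0.13, between 153.97 ± 38.4 (10 spots) and 59.7 ± 8.16 (9 spots). After the first, these values did not differ beyond their errors.

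Members with a probe not above background stand outside that count. For miR-6867-3p, with a total gene signal of 42.02 ± 4.29, all 10 spots of one probe were well above background, at a mean of 220 ± 73.7 (SD, 10 spots), against 3 of 10 for the other, at 9.48 ± 6.07. For miR-6740-3p, at 16.4 ± 1.72, the probes had 89.5 ± 12.07 and 7.31 ± 4.44, with all 10 and 2 of 10 spots flagged. These 2 were named after their values had been seen, and are the brightest of the 19 members with some but not all probes above background.

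Replicate spots of the same probe also differed, and more so for these arms than for most of the array. The coefficient of variation (CV) between spots was taken for the 120 member probes above background. Its median was 21.5%, and the quartiles were 13.6% and 27.4%. It was 8.74% over 1943 probes of the array and 9.32% over 161 probes of the 5p arms of the range. After normexp, whose offset enlarges every mean, the medians were 7.17% for the members, 4.20% for the array and 4.41% for the 5p arms. The probes were about as bright, with a median mean signal of 46.7 for the members, 57.2 for the array and 45.2 for the 5p arms.

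The spread went with the share of C in the strand. Among probes with a mean signal of 20 to 300, a range set after the values had been seen, the median CV was 7.06% for 7 member probes (3 members) with under 35% C, 24.9% for 13 probes (7 members) with 35% to 45% C and 24.2% for 55 probes (31 members) with 45% C or more. Outside the members it was 8.13% for 809 probes under 35% C, 11.4% for 85 between and 22.3% for 65 with 45% C or more. Within that last class it was 26.3% for 35 probes of other 3p arms and 13.8% for 29 probes of the miRNAs that were neither 3p arms nor 5p arms of the range. The wide spread was thus also found in C-rich 3p arms outside the name range. Of the 3 members under 35% C, miR-6720-3p and miR-6840-3p had CVs of 3.89% to 7.36% over 5 probes, while both probes of miR-6873-3p, at 34.8% C, had 12.4% and 16.4%. In the class between, members and others stood apart, at 24.9% and 11.4%, which rests on 7 members.

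**Figure D4:**
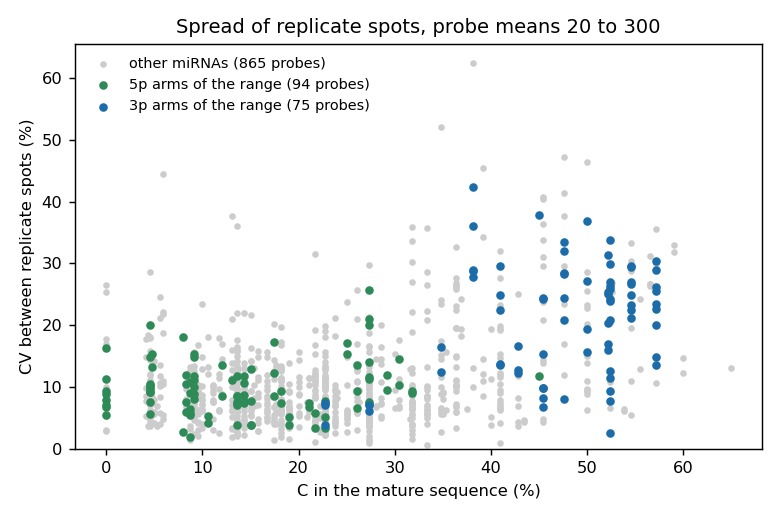
CV between replicate spots of a probe (percent) against the share of C in the mature sequence (percent), for probes with a mean signal of 20 to 300: 3p arms of the range, 5p arms of the range and all other miRNAs. Points at 45% C and over, most of the 3p arms of the range among them, have a median CV of 24.2% in the 3p arms of the range and 22.3% outside them, while the 5p arms, nearly all under 35% C, have a median of 9.04%.

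The place of a spot on the array moved with this spread. The 384 rows and 164 columns were each cut into 8 bands, and each spot was given as its log2 deviation from the mean of its probe. Member spots lay at -0.30 ± 0.03 (SE, 115 spots) in the first band of rows and at 0.14 ± 0.02 (134 spots) in the last. Across columns they lay at -0.18 ± 0.03 (112 spots) and -0.19 ± 0.03 (152 spots) at the edges and at 0.13 ± 0.03 (131 spots) in the fourth band. Spots of other miRNAs with 45% C or more showed a like course, from -0.24 ± 0.03 to 0.16 ± 0.02 over the rows. Those of 5p arms of the range went from -0.07 ± 0.01 to 0.07 ± 0.01. Row and column bands took up 28.9% of the variance of member spots about their probe mean, 27.9% for other miRNAs with 45% C or more, 10.4% for the 5p arms and 11.4% for other miRNAs under 35% C.

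When the course over rows and columns of other miRNAs of like C share was taken out of the member spots, the median CV of the 110 member probes with a sequence fell from 21.9% to 18.0%, so most of the spread remained. The differences between probes barely moved, with a median of 0.29 before and 0.30 after over 45 members, and 9 at 1 or more in both.

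**Figure D5:**
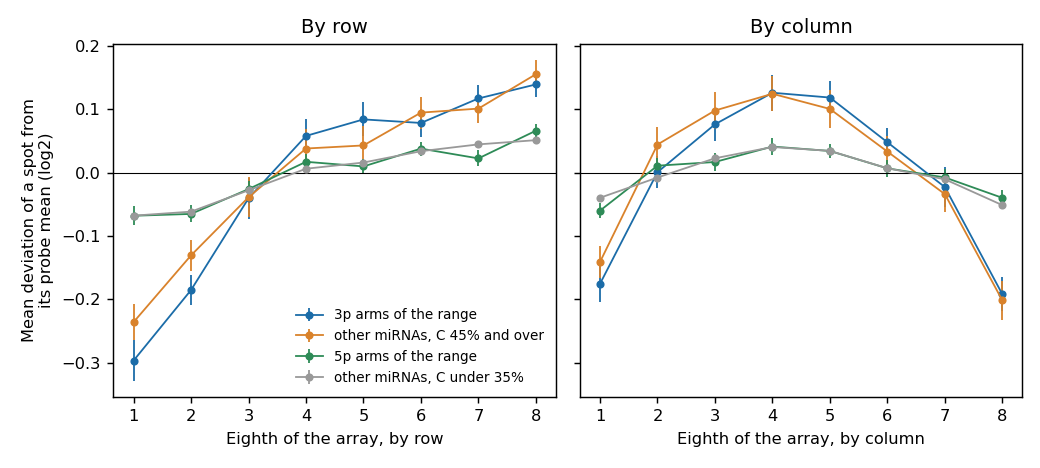
Mean log2 deviation of a spot from the mean of its probe, with its SE, by band of rows (left) and of columns (right) of the array, for the 3p and 5p arms of the range and for other miRNAs with at least 45% or under 35% C. The 3p arms of the range and the other C-rich miRNAs climb from about -0.3 and -0.24 in the first band of rows to 0.14 and 0.16 in the last, while the other sets stay between -0.07 and 0.07.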

How the data were processed

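MiRNA levels were measured in 1 sample of DLD-1 cells on 1 single-colour Agilent array. Feature Extraction 11.0.1.1 gave the intensity of each spot (array design on hg19, per the file headers). The deposited scanner table lists it after background subtraction, beside flags of the software and a total gene signal with its error. The label was Cyanine 3-pCp on RNA per the labels, whereas the methods of the study describe labelled cDNA, and the values do not settle this. The authors also deposited log2 values for 2570 features after quantile normalization in GeneSpring, with a floor. Its sample columns left unused numbered 0.

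Detection was the flag of the software. Outlier spots (4.60% of member spots) were left out of probe means, and spots at or below 0 (13 of 1506 for detected members) out of log2 levels. Sequences and names came from RefSeq tables on GRCh38.p14, with hosts taken as genes whose span holds the strand. Normexp (offset 50) used the median spot signal. Tools were R 4.3.3 with limma 3.58.1, and Python 3.11.15 with scipy 1.17.1, pandas 2.3.3, numpy 2.4.6 and, for plots, matplotlib 3.10.9. Simulated data served to test the probe calculations.

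Members, lists and alternatives were chosen with earlier results of these data known. The members named were the 10 highest total gene signals, the 5 largest probe differences, the 3 on either side of the detection limit, the 5 highest signals without a detected 5p arm, and detected members sharing a seed, with exceptions marked where they stand. Alternatives were 4 detection rules, narrower member rules, another array reference, normexp, deposited values, outlier spots kept and other filters on dim probes. Medians were judged by a 95% binomial interval over members or probes, and counts by a factor of 1.5. That interval takes members or probes as independent although all share 1 array, so it does not measure spread between samples. The single array limits the precision.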

Additional observations from a re-analysis of the deposited data

Results flagged for a closer look

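Names of the range without an arm label are no members and entered no result above. Of the 4, miR-6860 had a total gene signal of 9.18 ± 0.951 (error from the scanner software), with 19 of 20 spots well above background and the median spot of its best probe above the 99th percentile of negative controls. The others, miR-6745, miR-6844 and miR-6863, were not detected.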

How the results depend on the processing

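Over 13 results, 57 alternative values were computed, of which 15 moved and 42 stayed within their limits. The 78 detected members moved to 48 with all probes above background, and the other rules gave 56 to 76, all subsets of the 78. The count also moved to 49 among the 115 members that end in AG. That is 42.6% of them against 45.1% of all 173 members, so the count fell mainly because fewer members were counted. Hairpins with both arms detected, 47, moved to 27 with the median spot against negative controls, to 16 with every probe above background and to 25 with a signal of 5 or more, and with every probe above background the share of 3p arms detected was lower with a detected 5p arm than without. Detected members ending in AG, 49, moved to 29 with every probe above background. The median log2 level of detected members, -2.47, moved to -0.034 against the percentile of every miRNA spot, 26.3 in place of 143, to -1.18 with normexp and to -1.65 over members with a signal of 5 or more. The median probe difference moved to 0.12 with normexp, and the 9 members at 1 or more became 2 with normexp and 16 with no filter on dim probes. The median CV, 21.5%, moved to 7.17% with normexp, to 28.4% with no filter on dim probes and to 18.0% with the position pattern of other miRNAs removed, an alternative added after the data were seen. Normexp adds its offset to every signal and was also run on the median spot signal in place of the background-subtracted one. The share of each in the normexp shifts was not tested. A lower reference raises every level alike, and leaving out members with a signal under 5 takes away low levels. For the other shifts the cause was not tested. No paired analysis was possible because there is 1 sample. Signal over background limits the 22 members under a signal of 5.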
